A study of Mus musculus with 116 samples.

Results

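The fibulins and their partners in the elastic fibre were followed as a list of 10 genes (Efemp1, Efemp2, Fbln5, Fbln1, Fbln2, Fbn1, Ltbp1, Ltbp4, Eln and Lox) out of 40202 gene symbols counted in each library. The list was chosen by the measured counts of Efemp1 in the single cells, already known to be found in C10 and not in SVEC, and by kinship of the other genes to it, so the C10 to SVEC levels of its members are given as descriptions with no test. The libraries came from 2 mouse lines in standard culture with no treatment: C10, labelled as alveolar type II epithelial cells (the surfactant-making cells of the lung), and SVEC, labelled as endothelial cells (the lining of blood vessels). They were prepared by nanoSPLITS, which lyses few cells in a nanodroplet and divides the droplet so that RNA and protein can be read from the same cells, and full-length cDNA was sequenced as single reads. An input series held 8 C10 libraries of 1 cell, 6 of 3 pooled cells and 6 of 10 pooled cells, and a second set held 48 single cells of C10 and 48 of SVEC, of which 46 and 48 were used. The labels name no separate cultures, so each line counts as 1 sample and the spread between libraries may be technical.

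Elastic fibres are made of an elastin core laid on a scaffold of fibrillin microfibrils, and they give the lung and the vessel wall their recoil. Fibulins are secreted glycoproteins built of calcium-binding EGF-like repeats that link these parts: fibulin-4 (Efemp2) brings lysyl oxidase (Lox) to tropoelastin, and fibulin-5 (Fbln5) guides elastin onto the microfibril. The latent TGF-beta binding proteins (Ltbp1, Ltbp4) share the repeat structure of the fibrillins and tether latent TGF-beta to the matrix.

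Depth set what each library could show. Libraries of the input series held 6889508 to 15385625 counts, apart from replicate 1 of the 1-cell group with 430798 counts, 538 genes and 95.1% of its reads not aligned. C10 single cells held 83188 to 5911755 counts and SVEC single cells 5122 to 2831907, with 45 C10 and 42 SVEC cells at 100000 counts or more. The labelled cell types were only partly borne out by their markers: 5 of 9 alveolar type II markers (Slc34a2 and the surfactant genes Sftpa1, Sftpb, Sftpc, Sftpd) were at 0 in all C10 single cells, and none of 10 endothelial markers had a count in at least 50% of SVEC cells, with Kdr, Tie1, Vwf and Emcn at 0. Some other markers went with the labels. Flt1, a VEGF receptor that overlaps Gm35383 in part, had 799 counts in 8 SVEC cells and 59 in 13 C10 cells. By CPM, Flt1 was 46.4-fold higher in SVEC. The other endothelial markers were mixed. Tek had 56 counts in 12 C10 cells and 3 in 3 SVEC cells, and Eng 240 in 10 and 18 in 3. By CPM these were 5.45-fold and 3.90-fold higher in C10. Pecam1 had 22 counts in C10 and 6 in SVEC, a CPM ratio of 1.07. Cdh5 had 1 count in C10 and 5 in SVEC, and Erg 0 and 1. Cdh1 (E-cadherin) was counted in 24 C10 cells and 1 SVEC cell, with 67 counts and 1 count, or 0.675 and 0.0345 CPM. The epithelial genes Krt7, Krt18, Krt19 and Epcam had 448, 118, 10 and 21 counts in C10, in at most 4 cells each, and 0 in SVEC. Krt8 and Cldn4 were at 0 in the single cells of both lines. Of the other alveolar type II markers, Etv5 was counted in 24 C10 and 3 SVEC cells and Abca3 in 14 and 6. Lamp3 was counted in 10 and 7 cells and Napsa in 2 and 2. Fibroblast markers were mixed in both lines. Col1a1 was counted in 46 of 46 C10 and 47 of 48 SVEC cells, Dcn in 46 and 31 and Col3a1 in 37 and 27. Pdgfra was counted in 9 and 10 cells, Col1a2 in 6 and 10 and Pdgfrb in 4 and 9. The other 3 of the 9 (Lum, Tcf21 and Thy1) were at 0 in both. Tcf21 lies inside Gm10824, and such a 0 cannot be read as a level, as set out for Timp3 among the related genes. The summed level of these 9 markers ran from 476 to 15368 CPM in C10 cells (median 2392) and from 0 to 11331 CPM in SVEC cells (median 1251). CPM here means counts scaled to 1000000 counts assigned to genes. The part of this marker pattern in the levels of the matrix genes was not tested.

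Of the fibulins, 3 are shown by the 199 bases before their first annotated start, because they differ in where they were counted: Efemp1 in C10 single cells only, Efemp2 in both lines and Fbln1 in SVEC single cells only. The sequences are from RefSeq on GRCm38.p6, 5′ to 3′ on the strand of the gene (plus for all 3), in lower case with matches to GGGCGG, read on both strands, in capitals. They span chr11:28852955-28853153 for Efemp1, chr19:5473747-5473945 for Efemp2 and chr15:85205750-85205948 for Fbln1. Of the 10 genes, 8 had an entry in the RefSeq promoter table, and Eln and Lox are named only.
Efemp1: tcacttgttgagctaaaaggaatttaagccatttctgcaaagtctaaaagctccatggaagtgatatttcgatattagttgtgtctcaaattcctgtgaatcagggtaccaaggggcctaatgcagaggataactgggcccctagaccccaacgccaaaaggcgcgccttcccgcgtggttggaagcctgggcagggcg
Efemp2: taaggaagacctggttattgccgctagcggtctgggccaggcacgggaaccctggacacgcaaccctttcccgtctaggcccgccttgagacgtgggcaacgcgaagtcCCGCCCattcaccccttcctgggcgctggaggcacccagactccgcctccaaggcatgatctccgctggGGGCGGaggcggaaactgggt
Fbln1: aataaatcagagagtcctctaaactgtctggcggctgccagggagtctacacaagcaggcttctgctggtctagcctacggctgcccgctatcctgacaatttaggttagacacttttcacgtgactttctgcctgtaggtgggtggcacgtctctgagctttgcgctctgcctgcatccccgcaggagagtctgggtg

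The window of Efemp1 had a GC content of 49.7% with 7 CpG dinucleotides, that of Fbln1 54.8% with 7, and that of Efemp2 65.3% with 15. Over 32851 such windows the median was 52.8% GC and 5 CpG. Each window was searched on both strands for 4 motifs. A TATA box, spelled TATAAA, was held by 9.93% of all windows. The Sp1-type GC box, spelled GGGCGG, was held by 31.0%. A CCAAT box was held by 29.3%, and the AP-1 site, spelled TGACTCA, by 3.63%. Efemp2 held GGGCGG at 90 and 21 bases before the start, with no overlap between the matches. None of the 4 motifs was in the window of Efemp1 or Fbln1, which says only that these letters are not in these 199 bases.

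Efemp1 (fibulin-3, a fibulin of basement membranes that binds the metalloproteinase inhibitor TIMP3) was counted in every C10 single cell and in no SVEC cell. In the 46 C10 cells its lowest, median and highest levels were 104, 482 and 1696 CPM, and in the 48 SVEC cells all were 0. The groups did not overlap. Summed over cells, Efemp1 had 70008 counts in C10, or 704.8 CPM (exact 95% Poisson interval 699.6 to 710.03), against 0 counts of 29017802 in SVEC. Set against a floor of 3 counts over the whole SVEC group (0.103 CPM), it was at least 6817-fold higher in C10. Such bounds, here and below, rest on that floor, which lies under 3.69 counts, the exact 95% upper limit for 0 counts. With the mean of the cells' CPM the fold was 6013, and with the 1-cell input libraries for C10 it was 4456. The bound also follows the depth of the SVEC libraries: with every library thinned to 100000 counts it was at least 874-fold. Among the 9303 genes with a count in at least 25% of the cells of either line, 835 were counted in every C10 cell, and 3 of these, Efemp1 among them, had no SVEC count. The reverse pattern, a count in every SVEC cell and none in C10, was met by 0 genes, where 64 genes were counted in every SVEC cell. Intervals and floors cover counting error only, since no molecular identifiers are described and PCR copies count as reads.

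Within the C10 line the level of Efemp1 varied between cells. In the 46 single cells its mean was 622 CPM with an SD of 423, a coefficient of variation of 68.1%, against 48.7% for Efemp2 and 164% for Fbln2. The last rests on replicate 24 at 3822 CPM, without which, an alternative chosen after seeing the data, it was 74.4%. None of these 46 cells was at 0. The lowest by CPM, replicate 34 at 104 CPM, held 151 counts of Efemp1. Replicate 10, the shallowest with 83188 counts in all, held 14. Of the 8 libraries of 1 C10 cell in the input series, 2 were at 0, as given with that series.

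Efemp2 (fibulin-4) was the one fibulin at a high level in nearly every library of both lines. Its lowest, median and highest levels were 192, 539 and 1536 CPM in C10 cells and 0, 306 and 1189 CPM in SVEC cells, so the lines overlapped widely. The summed level was 646.8 CPM in C10 and 418.6 CPM in SVEC, a ratio of 1.54 (1.52 to 1.58, exact 95% interval of the counts). With the mean of the cells' CPM the ratio was 1.86, and with every library thinned to 100000 counts it was 1.75. Both lie above that interval, which covers counting error only. Of the 48 SVEC cells, 7 had no count of Efemp2. These 7 held a median of 95959 counts, against 520453 in the 41 cells with a count, and 3 of the 7 held 100000 counts or more.

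Fbln2 (fibulin-2, a larger fibulin that binds fibronectin and basement membrane proteins) had summed levels of 304.3 CPM in C10 and 299.2 CPM in SVEC, a ratio of 1.02 (0.993 to 1.04). Its cells ranged from 31.6 through a median of 220.1 to 3822 CPM in C10 and from 0 through 179 to 1505 CPM in SVEC. C10 replicate 24 alone held 14.4% of the line's Fbln2 counts, and SVEC replicate 19 held 15.2%. Without these 2 cells the log2 ratio of C10 to SVEC was -0.09 in place of 0.02, and with every library thinned to 100000 counts the ratio was 1.39. All 46 C10 cells and 36 of 48 SVEC cells had a count.

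Fbln5 (fibulin-5) was counted in fewer than 50% of the cells of either line. It had a count in 19 of 46 C10 cells, of which 16 reached 10 CPM, with a highest level of 416 CPM and a median of 90.3 CPM where counted. In SVEC it had a count in 22 of 48 cells, with a highest level of 910 CPM and a median of 176 CPM where counted. The median over all cells was 0 CPM in both lines, and the ranges overlapped. Summed levels were 54.3 CPM in C10 and 113.5 CPM in SVEC, 2.09-fold higher in SVEC.

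Fbln1 (fibulin-1, a fibulin of blood and of basement membranes) had the opposite presence to Efemp1, at a much lower level. It had no count in the 46 C10 single cells and 332 counts in SVEC, in 9 of 48 cells, which reached at most 261 CPM and had a median of 29.6 CPM where counted. SVEC replicate 45 held 38.3% of these counts. Against the floor of 3 counts over all C10 cells, Fbln1 was at least 379-fold higher in SVEC, a log2 ratio of -8.57, which came to -7.84 without that cell. With every library thinned to 100000 counts the bound was at least 26.1-fold. Its share of cells fell short of the 25% needed to count as measured. In the C10 input series, 2 of the 1-cell libraries and 1 of the 3-cell pools held 1 count of Fbln1 each, and the 10-cell pools held 0. The sums of these groups lie under the floor of 3 counts, so presence in C10 is not read from them.

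Fbn1 (fibrillin-1), the main protein of the microfibril, was counted in 21 of 46 C10 cells and 9 of 48 SVEC cells. The highest C10 cell had 399.3 CPM and the highest SVEC cell 399.5 CPM, and the median where counted was 34.8 and 35.8 CPM. Summed levels were 31.0 CPM in C10 and 17.9 CPM in SVEC. SVEC replicate 41 held 35.1% of the line's counts.

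Ltbp1 was counted in 17 C10 and 14 SVEC cells. It stood at 15.3 CPM summed over C10 and 42.3 CPM over SVEC, 2.77-fold higher in SVEC. The log2 ratio of C10 to SVEC, -1.47 from the sums, was -0.96 with the mean of the cells' CPM. With every library thinned to 100000 counts it was -0.94. Where counted, the median of Ltbp1 was 10.1 CPM in C10 and 77.0 CPM in SVEC. The highest cells had 329.8 and 301.1 CPM. Ltbp4, which in the lung is needed for elastic fibre assembly, was counted in 6 cells of each line and summed to 1.21 CPM in C10 and 4.41 CPM in SVEC. C10 replicate 45 held 45.8% of the C10 counts and SVEC replicate 30 held 50.8% of the SVEC counts. In the RefSeq annotation Ltbp1 overlaps Gm6276, Ltbp4 overlaps Gm30543 and Eln overlaps Gm30003, and whether reads were counted by strand is not known, which leaves reads in those stretches uncertain. The other 7 genes overlap no other gene.

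Elastin itself (Eln), the protein of the fibre core, had almost no counts. C10 single cells held 2 counts in all, in 2 cells, and SVEC cells held 0, so no fold is given. Over the SVEC line 3 counts stand for 0.103 CPM, and a level of Eln below that was not detectable at this depth. In the deeper input series Eln had a count in 6 of 8 libraries of 1 cell, 4 of 6 of 3 cells and 6 of 6 of 10 cells, at no more than 1.58 CPM.

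Lox, the copper enzyme that cross-links elastin and collagen, was in contrast abundant in both lines. Its cells ranged from 0 through a median of 446 to 1566 CPM in C10, where 45 of 46 had a count, and from 0 through 159 to 1498 CPM in SVEC, where 33 of 48 did. The summed levels were 541.8 CPM and 316.1 CPM, a ratio of 1.71 (1.68 to 1.75, counting error only). With the mean of the cells' CPM it was 1.92, thinned to 100000 counts 1.88, and with the 1-cell input libraries for C10 1.03. The 15 SVEC cells without a count held a median of 303680 counts, and 12 of them held 100000 or more.

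**Figure D1:**
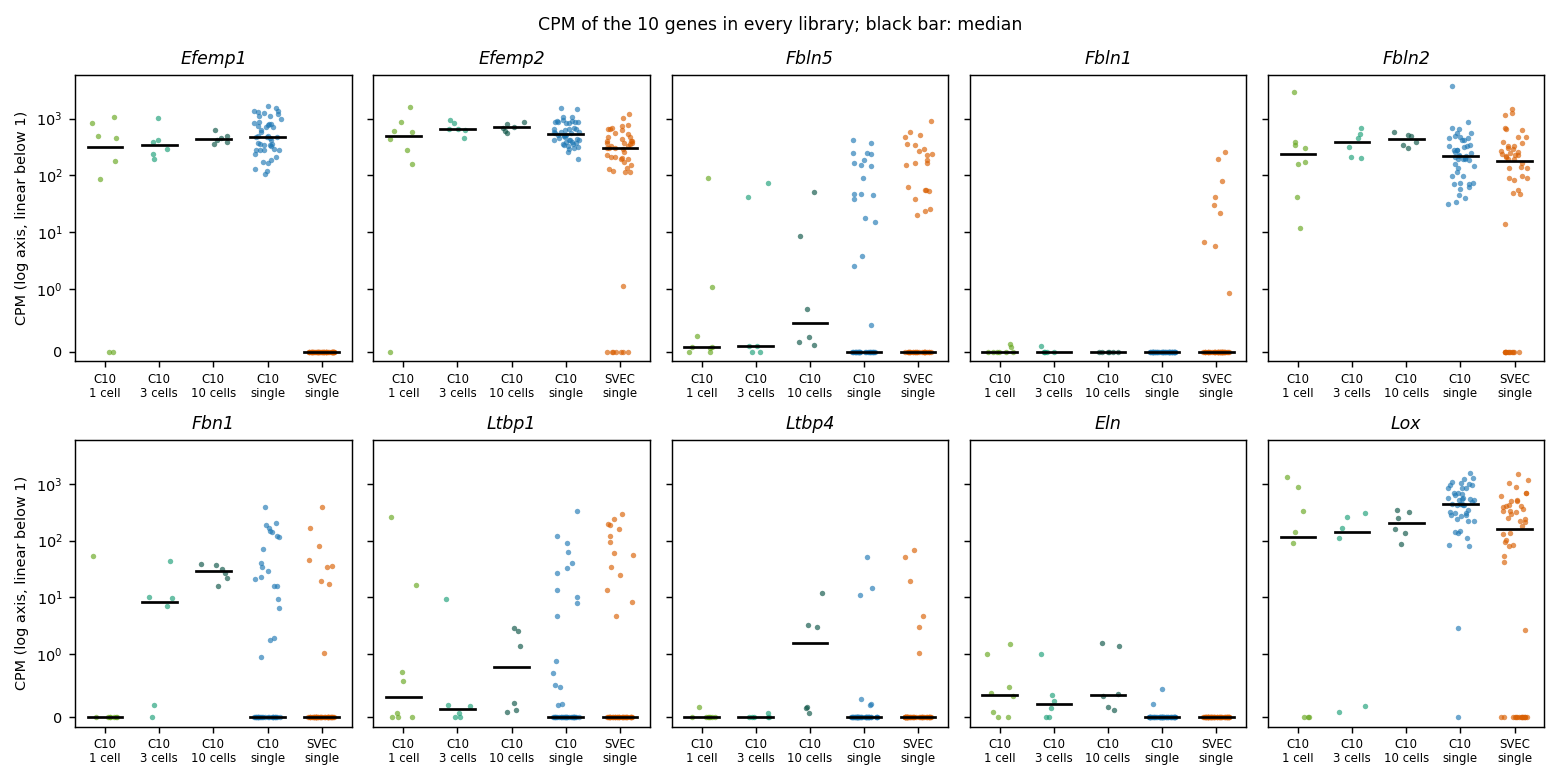
CPM of each of the 10 genes (y axis, logarithmic above 1 CPM and linear below) in every library of the 5 groups (x axis), 1 point per library and a black bar at the group median. Efemp1 lies at 104 CPM or above in every C10 single cell and at 0 in every SVEC cell, while the cells of the 2 lines overlap for Efemp2, Fbln2 and Lox.

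Of the 10 genes, 7 were measured in the sense above, and 1 of these, Efemp1, was at least 4-fold higher in C10, where 7.78% of the 9303 measured genes were. No member was at least 4-fold higher in SVEC, where 6.08% of measured genes were. The list was built around this contrast, so nothing is read from these counts. The median log2 ratio of C10 to SVEC was 0.63 over the 7 members and -0.0028 over all measured genes. Efemp2, Fbln2, Fbn1, Lox, Fbln5 and Ltbp1 all lay within a ratio of 4, the last at 2.77-fold nearest to it. With the 8 libraries of 1 C10 cell in place of the C10 single cells, the log2 ratio to SVEC was -2.84 for Fbln5, -1.13 for Fbn1, -0.56 for Ltbp1, 0.04 for Lox, 0.80 for Fbln2 (a ratio of 1.74) and -7.45 for Ltbp4. Taking the mean of the cells' CPM in place of the sum gave -0.86 for Ltbp4, against -1.87 from the sums. Scaling the sums by TMM factors raised every log2 ratio by 0.13 and changed the direction for none of the members.

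**Figure D2:**
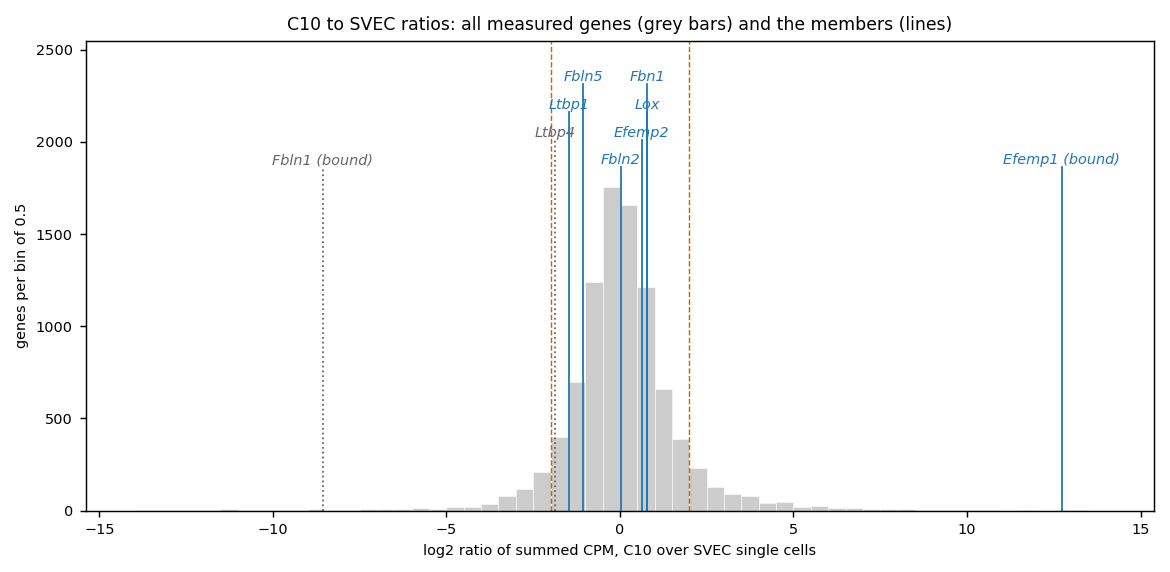
Log2 ratio of the summed CPM of C10 to SVEC single cells (x axis) for all 9303 measured genes (grey bars, genes per bin of 0.5 on the y axis) and for the members (vertical lines; dotted for Fbln1 and Ltbp4, which were not measured by the rule). Dashed lines mark a ratio of 4, and Efemp1 and Fbln1 are drawn at their bounds of 12.73 and -8.57.

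Levels were compared between genes only per kilobase of exon, with lengths from the GENCODE M21 annotation. In C10 single cells the order of the summed levels was Efemp1 (346 CPM per kilobase), Efemp2 (215), Lox (113), Fbln2 (63.6), Fbln5 (8.96), Fbn1 (2.58), Ltbp1 (2.21), Ltbp4 (0.206) and Eln (0.0052). In SVEC cells it was Efemp2 (139), Lox (66.2), Fbln2 (62.5), Fbln5 (18.7), Ltbp1 (6.13), Fbln1 (2.79), Fbn1 (1.49) and Ltbp4 (0.752). The ranges of cells overlapped between every pair of neighbours in both orders. In the 10-cell C10 pools Efemp2 (235) and Efemp1 (230) overlapped at the top and every pool of both lay above every pool of Fbln2 (90.4). Fbln2 and Lox (46.0) overlapped there, and every pool of Lox lay above every pool of Fbn1 (2.45).

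Shares of cells with a count depend on depth, so every single cell was thinned to 100000 counts, which left out 1 C10 and 6 SVEC cells. At that depth Efemp1 was counted in 100% of 45 C10 cells and in 0 of 42 SVEC cells, which allows a share of up to 8.41% (exact binomial 95% interval). Efemp2 was counted in 100% of C10 and 90.5% of SVEC cells (77.4% to 97.3%), Fbln2 in 100% and 81.0% (65.9% to 91.4%) and Lox in 95.6% (84.9% to 99.5%) and 69.0% (52.9% to 82.4%). For the sparse genes the intervals of the lines overlapped: Fbln5 37.8% and 50%, Fbn1 37.8% and 14.3%, Ltbp1 28.9% and 28.6%, Ltbp4 4.44% and 11.9%. Fbln1 was counted in 0% of C10 (up to 7.87%) and 14.3% of SVEC cells (5.43% to 28.5%), so its intervals overlapped too. Eln was counted in none. Without thinning the shares among the same cells were 40% and 50% for Fbln5, 46.7% and 19.0% for Fbn1 and 37.8% and 33.3% for Ltbp1.

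**Figure D3:**
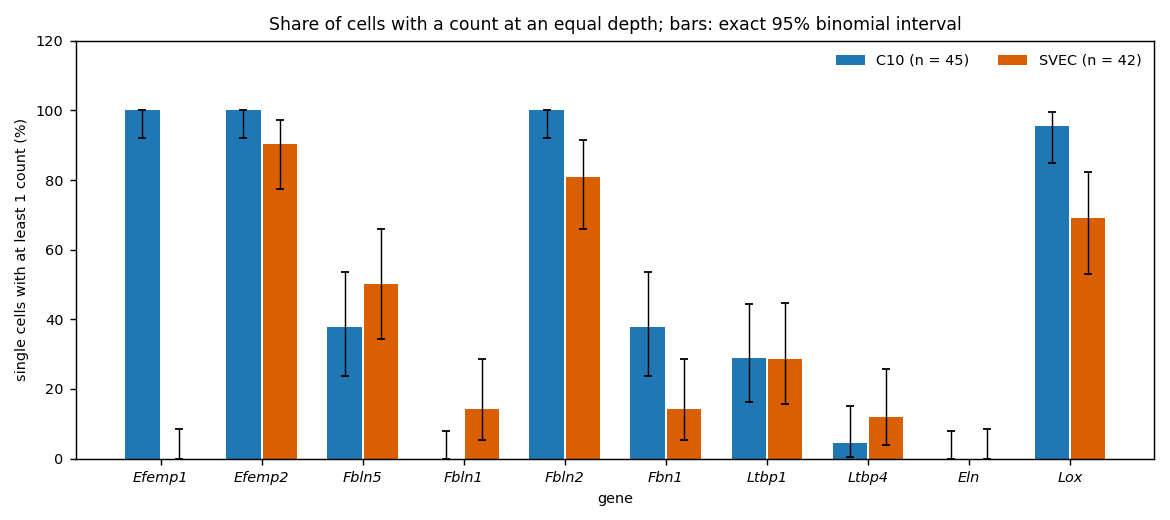
Share of single cells with at least 1 count of each gene (y axis, percent) after thinning to 100000 counts, for 45 C10 and 42 SVEC cells; bars start at 0 and lines are exact 95% binomial intervals. Efemp1 reaches 100% in C10 and 0% in SVEC, and no other member is at 0% in SVEC except Eln.

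The members were then compared cell by cell. Of the 10 genes, a C10 cell had counts for 4 to 9 (median 5) and a SVEC cell for 0 to 8 (median 3). The 4 genes counted in nearly every C10 cell, Efemp1, Efemp2, Fbln2 and Lox, were set against each other in the 45 C10 cells with 100000 counts or more. Spearman's rho of log2(CPM + 1) over these cells lay between -0.02 (Efemp1 with Lox) and 0.25 (Efemp1 with Efemp2). The cells share the library preparation, and Efemp1 correlated at 0.30 with the total count. Among the sparse genes, Fbln5 had a count in 18 of these cells and Fbn1 in 21, with 10 cells holding both and 16 neither. Ltbp1 and Fbn1 were both counted in 9 cells, of 17 and 21. In the 42 SVEC cells of that depth, Fbn1 was counted in 8 and Ltbp1 in 14, with both in 6. These figures describe sparse counts and were not tested.

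**Figure D4:**
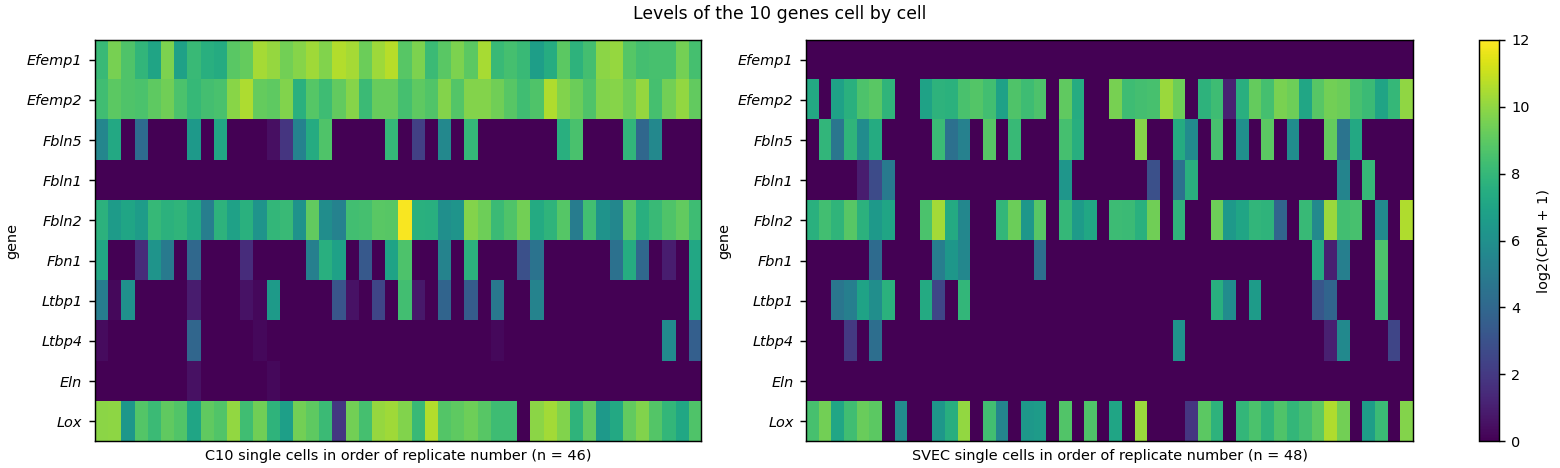
Levels of the 10 genes as log2(CPM + 1) (colour) in each of 46 C10 (left) and 48 SVEC (right) single cells, 1 column per cell in order of replicate number. Efemp1, Efemp2, Fbln2 and Lox form near-continuous bands in C10, the Efemp1 row is empty in SVEC, and Fbln5, Fbn1 and Ltbp1 appear in scattered cells of both lines.

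The genes whose level was most like that of Efemp1 over the 45 C10 cells were taken from 1886 genes with a count in at least 90% of them, by Spearman's rho. They were Hnrnpk (an RNA-binding protein; rho 0.53), Pcsk5 (a proprotein convertase; 0.52), Ywhaz (a 14-3-3 protein; 0.51), Hspa9 (the mitochondrial heat shock protein; 0.50) and Rars (an arginyl-tRNA synthetase; 0.49). The most unlike were Mir682 (-0.62), Slirp (an RNA-binding protein of mitochondria; -0.55) and Cox7a2 (a subunit of cytochrome c oxidase; -0.55). Of all 1886 genes, 1% lay below -0.46 and 1% above 0.41. In the 7 libraries of 1 C10 cell other than replicate 1, which did not enter the ranking, the 5 highest had a rho of 0.11, -0.32, -0.29, 0.29 and 0.54 in the same order, and the 3 lowest -0.50, -0.43 and -0.50. Mir682 lies inside another gene, and of the other 7 only Rars overlaps none.

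Highest for Efemp2 were Copz1 (0.54), Mtfr1l (0.53) and Ap2m1 (0.50). For Fbln2 they were Col1a1 (0.61), the collagen chain listed above as a fibroblast marker, Ctsb (0.49) and Tpd52l2 (0.45). For Lox they were Tmbim6 (0.54), Psmc1 (0.53) and Cers2 (0.45). No gene stood among the highest of more than 1 member. The rho of Fbln2 with Col1a1 in the 7 libraries of 1 cell was 0.32.

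The input series asked how these levels hold when 1, 3 or 10 C10 cells are put in a library. In pools, fewer cells with a gene and less RNA of it per cell cannot be told apart. Efemp1 had its lowest, median and highest library at 0, 319 and 1073 CPM with 1 cell, at 193, 342 and 1027 CPM with 3 cells and at 364, 435 and 635 CPM with 10 cells. The ranges overlapped, and the coefficient of variation was 102%, 71.5% and 21.4%. Without the highest library of each group it was 107% (1 cell, without replicate 14), 32.4% (3 cells, without replicate 10) and 12.8% (10 cells, without replicate 2). Efemp1 was at 0 in replicates 1 and 5 of the 1-cell group. Replicate 5 was a library of 7850065 counts with 571 CPM of Efemp2 and no count of Lox, and 50.96% of its reads were not aligned.

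For the other abundant members too the SD was smallest with 10 cells. Efemp2 stood at 571.5 ± 509 CPM with 1 cell (SD, n = 8), 696 ± 174 with 3 cells (SD, n = 6) and 703 ± 120 with 10 cells (SD, n = 6). Fbln2 stood at 548 ± 987, 403 ± 194 and 437 ± 107 CPM in the same groups. Replicate 14 of the 1-cell group was the highest for both Fbln2 and Lox, at 2968 and 1321 CPM. It was also the highest of that group for Efemp1, Ltbp1 and Eln, at 1073, 264 and 1.53 CPM. Without replicate 14 the 1-cell level was 202 ± 147 CPM for Fbln2 and 209 ± 326 CPM for Lox (SD, n = 7). For Efemp1 it was 293 ± 313 CPM (SD, n = 7), against 391 ± 400 CPM with all 8 libraries. Lox stood at 348 ± 496, 143 ± 131 and 216 ± 105 CPM, with 3 of 8 libraries of 1 cell at 0 and 2 of the 3-cell pools at 0.0854 and 0.178 CPM. Fbln2 was the 1 member with a count in all 8 libraries of 1 cell.

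The sparse members differed in how many libraries held them. Fbn1 was counted in 1 of 8 libraries of 1 cell, at 54.2 CPM, in 5 of 6 pools of 3 cells, up to 43.9 CPM, and in all 6 pools of 10 cells, at 15.6 to 39.2 CPM. Summed over libraries, Fbn1 stood at 8.16 CPM with 1 cell, 13.7 CPM with 3 cells and 29.4 CPM with 10 cells. Over the 46 C10 single cells, of which 25 had no count, it summed to 31.0 CPM. Fbln5 passed 10 CPM in 1 library of 1 cell (88.9 CPM), 2 pools of 3 cells (41.1 and 72.3 CPM) and 1 pool of 10 cells (50.2 CPM), and lay below that in all others. Ltbp1 passed 10 CPM in 2 libraries of 1 cell (264 and 16.6 CPM) and in no pool. Ltbp4 stood at 12.0, 3.26 and 3.04 CPM in 3 pools of 10 cells and at no more than 0.167 CPM in every other library of the input series.

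The pools of 10 cells were tested against those of 3 cells with edgeR's quasi-likelihood test over 13602 genes. Adjusted p-values under 0.05 were reached by 0% of genes in either direction, and 11.7% (1592 genes) had an unadjusted p under 0.05. DESeq2 called 508 genes higher and 56 lower with 10 cells, and limma 14 higher. Of the 9 members tested, 0 passed in edgeR and the pools of the 2 sizes overlapped for all 9, where 0.662% of genes had no overlap. Efemp1 differed by -0.04 on the log2 scale (SE 0.36), Efemp2 by -0.12 (SE 0.20), Fbln2 by -0.01 (SE 0.31) and Lox by 0.49 (SE 1.13), each within the spread between pools (edgeR adjusted p = 0.997, 0.997, 0.999 and 0.997).

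Fbn1 differed by 1.18 (SE 1.29), Eln by 0.91 (SE 1.05), Fbln5 by -1.03 (SE 2.07) and Ltbp1 by -0.72 (SE 1.56), with edgeR adjusted p-values from 0.971 to 0.997. Ltbp4 had the largest difference of the 9, 6.90 (SE 1.66), with an unadjusted p of 0.000944 and an edgeR adjusted p of 0.210. It rested on 167 counts in the 10-cell pools against 1 count in the 3-cell pools, a ratio of 158 with a counting interval of 27.9 to 6270. Replicate 1 of the 10-cell group held 59.9% of the 167 counts. With DESeq2 the adjusted p of Ltbp4 was 0.00216, and over 8 alternative fits it ran from 0.00216 to 0.4997. On simulated counts for this comparison, edgeR found 2.03% of 197 genes given a log2 difference of 2 and 28.6% of 192 given one of 4. The labels do not say that pools came from separate cultures, so these p-values measure only the spread between pools.

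**Figure D5:**
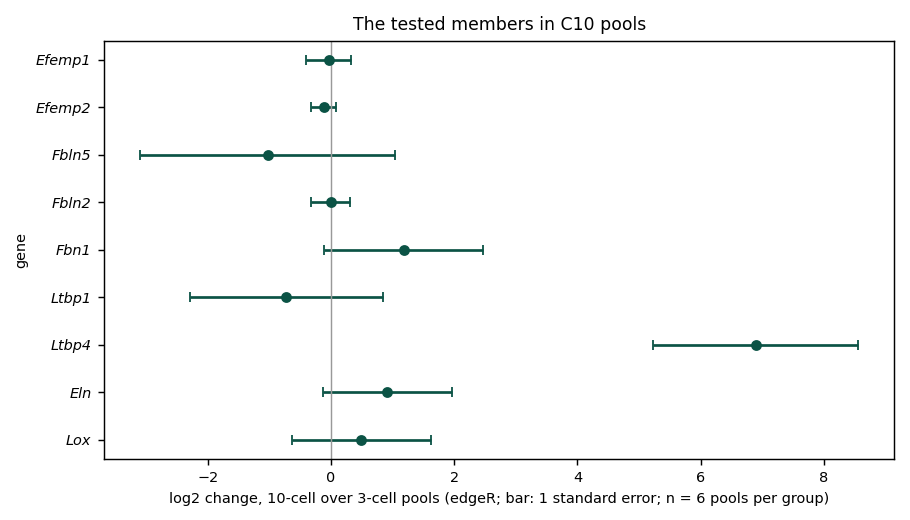
Log2 change from 3-cell to 10-cell C10 pools (x axis) for the 9 tested members, as the edgeR estimate (point) and 1 standard error (line), n = 6 pools per group. Efemp1, Efemp2 and Fbln2 lie within 0.12 of no change with short errors, and Ltbp4 lies at 6.90, resting on 1 count in the 3-cell pools.

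Related matrix genes were read from 8 lists, which were chosen with earlier results of these data known. Over all 9303 measured genes, 7.78% were at least 4-fold higher in C10 and 6.08% in SVEC. The lists are short, and nothing is read from their counts of such genes. Of the 8 fibulins (the 5 above with Fbln7, Hmcn1 and Hmcn2), 5 were measured, with a median log2 ratio of C10 to SVEC of 0.02. Of these, 1 was at least 4-fold higher in C10 (Efemp1) and 1 in SVEC, Hmcn1 (a giant fibulin-like protein), at 0.564 and 2.31 CPM. Hmcn1 was measured only through C10, with 56 counts in 23 of 46 C10 cells and 67 counts in 8 of 48 SVEC cells. Fbln7 had 0 counts in C10 single cells and 473 in SVEC, in 10 of 48 cells, and is named after its values were seen, as is Hmcn1. Of 19 fibrillins, LTBPs and microfibril proteins, 5 were measured and 0 passed a ratio of 4 in either direction (median 0.11), and Mfap2, Mfap4, Emilin3 and Adamtsl2 were at 0 in all libraries of the series.

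The enzymes that process elastin and the fibulins were next. Of 12 genes for elastin and its cross-linking, 6 were measured (median -0.95), with 0 higher in C10 and 1 higher in SVEC. This was Atp7a, the copper pump that supplies lysyl oxidase, with summed levels of 3.90 CPM for C10 and 72.2 CPM for SVEC. Atp7a was counted in 20 C10 and 12 SVEC cells, with a median of 0 CPM in both lines. Its highest cell reached 44.0 CPM in C10 and 1880 CPM in SVEC. The number of cells, which depends on depth, thus did not share the direction of the sums. Of 5 enzymes that modify EGF-like repeats, all were measured and 1, Poglut3, was 6.56-fold higher in C10, at 41.4 and 6.31 CPM (median -1.04). Among 15 genes of latent TGF-beta, its activators and receptors, 9 were measured (median 0.48) and 1, the convertase Furin, was called. Furin had 169 counts in C10, in 12 cells, and 0 in SVEC, with summed levels of 1.70 and 0 CPM. Its median over the C10 cells was 0 CPM, and it was measured only through C10. The bound of at least 16.5-fold higher in C10 rests on the floor of 3 counts over the SVEC cells.

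Among 13 genes of elastin turnover and its inhibitors, 5 were measured (median 0.67). Of these, 2 were higher in C10 and 0 in SVEC, where 7.78% and 6.08% of all measured genes were. Mmp2, a gelatinase, stood at 75.8 CPM in C10, in 32 of 46 cells, and at 0 in SVEC, at least 733-fold higher. Timp2, an inhibitor of metalloproteinases, stood at 599 and 122 CPM, 4.91-fold higher in C10. Timp1, Timp3 and Timp4 were at 0 in every library, and each lies inside a synapsin gene in the RefSeq annotation. Of protein-coding genes that lie wholly inside another gene, 881 of 917 (96.1%) were at 0 in all 116 libraries, against 33.9% of those without overlap, so a 0 for these 3 genes cannot be read as a level. The level of Timp3, whose protein binds fibulin-3, is therefore not given. None of the 10 members lies inside another gene.

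The elastin receptor complex (Glb1, Neu1 and Ctsa) was measured in full and no gene passed a ratio of 4 (median 0.13). Of 24 other matrix glycoproteins and proteoglycans, 11 were measured (median -1.32). Of these, 1 was higher in C10 and 3 in SVEC, where 7.78% and 6.08% of all measured genes were. Spp1 (osteopontin) had a summed level of 884 CPM in C10 and 14.7 CPM in SVEC, 60.2-fold higher. Higher in SVEC were Bgn (biglycan, a small proteoglycan that binds tropoelastin) at 3.67 and 490.1 CPM, Matn2 (matrilin-2) at 7.01 and 84.8 CPM, and Nid2 (nidogen-2, a basement membrane linker) at 0.101 and 30.6 CPM. Atp7a, Spp1 and Bgn overlap no other gene in the annotation, while Furin, Poglut3, Mmp2, Timp2, Matn2 and Nid2 overlap another in part. In the pools 0 genes of any of the 8 lists passed the adjusted threshold in edgeR, and 11 of the 65 tested (16.9%, where 11.7% of all genes did) had an unadjusted p under 0.05, Ltbp2, Ltbp4, Loxl1 and Atp7a among them.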

How the data were processed

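RNA was measured in 116 libraries. The deposited files hold whole-number read counts per gene, 1 file per library, as the authors made them. The submitters' processing notes name FastQC, STAR and HTSeq without roles or versions, and the genome build, annotation and strand setting are not given in the sources used here. The 5 closing counters were left out of library totals, and reads with no gene came to a median of 5.16 to 8.39 per 100 assigned counts over the 5 groups. Of 40202 symbols, 38730 were in RefSeq GRCm38.p6, which was used for overlaps and upstream sequences only.

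Groups came from the labels. The members and all gene lists were chosen with earlier results of these data known. Libraries under 1000 counts (2 C10 single cells) were left out. C10 and SVEC single cells were compared by summed counts as CPM, with exact Poisson and binomial 95% intervals and no test. A gene was measured if counted in at least 25% of either line's cells and called past a ratio of 4, and a line at 0 was set to 3 counts over the group. No 2 libraries agreed within sampling noise (lowest chi-square per degree of freedom 3.23).

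Pools were tested with edgeR 4.0.16 (quasi-likelihood test, TMM, Benjamini-Hochberg, genes counted in at least 50% of either group) in R 4.3.3. The test was tested on simulated counts: with 0 genes changed it made 0 calls, and with log2 differences of 4 put in, 3 calls were false. Alternatives were DESeq2 1.42.0, limma 3.58.1 on log2(CPM + 1), other scalings, filters and a replicate block. Shares were taken after thinning to 100000 counts. Named genes were the 10 members, list genes past a ratio of 4 and counted in at least 25% of the higher line's cells (up to 5 per direction and list), and for members counted in at least 90% of C10 cells the genes with the highest (5 for Efemp1, otherwise 3) and, for Efemp1, the 3 lowest rho. Libraries left out of a comparison and other genes were not analysed here.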

Additional observations from a re-analysis of the deposited data

Results flagged for a closer look

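In the input series, 24 of 30 groups of values (a member in the 1-, 3- or 10-cell libraries), those whose highest library reached 1 CPM, were checked for a library far from its group, and in 9 the highest library stood apart. Chance alone flags about 1 in 20 groups, or 1.2 here, where values are spread normally; these values are skewed, many of them 0, and that rate is no measure for them. With 1 cell, Fbln5 in replicate 6 stood at 88.9 CPM, against 0 to 1.08 CPM in the other 7 libraries, and Fbn1 in replicate 10 stood at 54.2 CPM, against 0 in the others. Replicate 14 of the 1-cell group stood apart for 2 members, Fbln2 at 2968 CPM (others 11.6 to 389) and Ltbp1 at 264 CPM (others 0 to 16.6). With 3 cells, Efemp1 in replicate 10 stood at 1027 CPM (others 193 to 429), Fbn1 in replicate 6 at 43.9 CPM (others 0 to 10.1) and Ltbp1 in replicate 5 at 9.48 CPM (others 0 to 0.191). With 10 cells, Fbln5 in replicate 2 stood at 50.2 CPM (others 0.105 to 8.53) and Ltbp4 in replicate 1 at 12.0 CPM (others 0.0677 to 3.26).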

How the results depend on the processing

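Efemp1 was the 1 member called higher in C10 under all 9 alternatives run for that count, 1 of which used a ratio of 2. The list was built around its contrast between the lines, so nothing is read from this. The number past a ratio of 4 in SVEC was 0, and at a ratio of 2 it was 2 (Fbln5 and Ltbp1). With the 1-cell libraries for C10 it was 1 (Fbln5), also without replicate 1 of these, an alternative chosen after seeing the data. Members in every 1-cell library numbered 2 (Efemp2 and Fbln2) without replicate 1. In the pools, the count of genes higher with 10 cells was 508 with DESeq2, 14 with limma and 5 with genes in at least 90% of a group, and lower ones numbered 56 with DESeq2, against 0 in edgeR; the cause was not tested. Same-numbered pools share only a number: deviations of same-numbered pools correlated at -0.0152 to 0.0506, 2 of 6 3-cell pools correlated best with their own number, and the replicate block left 0 genes called.

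Log2 differences of members that turned sign, all uncalled, were 0.31, 0.10 and 0.20 for Efemp1 (limma, library totals, replicate block), 0.036 and 0.013 for Efemp2 (limma, totals) and 0.86 for Fbln5 (block). For Fbln2 they were 0.23, 0.12, 0.0099, 0.087 and 0.0068 (limma, totals, no filter, block, 1-cell libraries in the fit), and for Ltbp1 0.27 and 2.40 (limma, block). The log2 ratio of C10 to SVEC turned in 3 of 72 values, for Fbln2 to -0.09 without the top cell of each line and for Fbn1 to -1.13 and -1.12 with the 1-cell libraries, with and without replicate 1. Of 186 values for single genes, 126 held, 46 moved, 1 passed the threshold (Ltbp4 with DESeq2) and 13, all pool differences, turned. The 3 ratios that turned are among the 46. Depth limits every statement of a 0 in either line.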

Other observations

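Some matrix genes outside the rule for naming are given here as values in the single cells. Nid1 (nidogen-1, the basement membrane partner of nidogen-2) had 1 count in C10 and stood at 70.5 CPM in SVEC, in 8 of 48 cells. Vcan (versican) and Ccn3 had 0 counts in C10 and stood at 10.3 and 22.2 CPM in SVEC, in 7 and 5 cells. Pcolce, the enhancer of procollagen C-proteinase, was counted in 46 of 46 C10 and 47 of 48 SVEC cells, at 410 and 942 CPM summed. Sparc, a matricellular glycoprotein, stood at 5646 and 3700 CPM, with counts in 46 cells of each line. These genes were chosen after their values were seen, and no test was run.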
